A study of Homo sapiens with 18 samples.

Results

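MHC class I presentation was followed through 9 genes in RKO cells depleted of ESCRT-I. They code for the class I heavy chains HLA-B, HLA-C and HLA-E, the light chain B2M, the peptide transporter subunits TAP1 and TAP2, the loading chaperone TAPBP (tapasin), and PSMB8 and PSMB9, which are catalytic subunits of the immunoproteasome. The genes were picked by symbol among the 20802 targets of the sequencing panel, by a rule with no threshold on their values, although earlier results of these data were known when they were chosen. Of the 9 genes, 8 had more than 100 counts summed over all libraries and were tested among 10246 genes. HLA-B had 6 counts and was not tested, whereas TAPBP, the member nearest to the minimum from above, had 121. RKO is an established human colorectal carcinoma line. Cells were transfected with 30 nM siRNA and harvested after 72 h, with 3 libraries for each of 6 siRNAs. Of these, siTsg101#1 and siTsg101#2 target TSG101, siVps28#1 and siVps28#2 target VPS28, and siCtrl#1 and siCtrl#2 have no target, so that every group had been transfected and untransfected cells were not among the samples. The replicate number of a library is also its batch in the labels, and each batch held 1 library of every siRNA. The study describes the 3 libraries of a group as independent experiments, and the p-values measure the spread between them.

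Class I molecules display short peptides from inside the cell to cytotoxic T cells. Proteins are cut into peptides by proteasomes, in which the interferon-inducible subunits PSMB8, PSMB9 and PSMB10 can take the place of the constitutive PSMB5, PSMB6 and PSMB7. TAP1 and TAP2 pump the peptides into the endoplasmic reticulum, where tapasin holds the heavy chain with its light chain B2M near the transporter until a peptide is bound. Transcription of these genes is driven mainly by NLRC5, NF-kB and interferon-regulated factors, and these act on short elements close to the start site. ESCRT-I, to which TSG101 and VPS28 belong, sorts ubiquitinated membrane proteins, class I molecules among them, into endosomes bound for the lysosome, and the design asked what happens to transcripts when either subunit is lost.

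To show where such elements lie, the sequences just upstream of the starts of 7 of the members are printed from RefSeq (GRCh38.p14), 5′ to 3′ in the direction of transcription. Capitals mark matches to the interferon-stimulated response element (ISRE, searched on both strands as GAAA, any 2 bases and GAAA again) and to the NF-kB consensus, which overlap in none of the printed stretches. PSMB8 is shown at both of its starts, and the stretch at its downstream start runs 6 bases past that start because the ISRE match crosses it.
HLA-C (chr6:31272093-31272272, minus strand): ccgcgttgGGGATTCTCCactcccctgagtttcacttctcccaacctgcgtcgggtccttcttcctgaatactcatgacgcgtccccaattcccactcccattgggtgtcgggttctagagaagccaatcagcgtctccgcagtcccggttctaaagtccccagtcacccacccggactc
B2M (chr15:44711367-44711516, plus strand): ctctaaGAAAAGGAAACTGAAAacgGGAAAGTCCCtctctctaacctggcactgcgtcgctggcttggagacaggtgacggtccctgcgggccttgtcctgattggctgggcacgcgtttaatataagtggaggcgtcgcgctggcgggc
TAP1, upstream start (chr6:32853705-32853854, minus strand): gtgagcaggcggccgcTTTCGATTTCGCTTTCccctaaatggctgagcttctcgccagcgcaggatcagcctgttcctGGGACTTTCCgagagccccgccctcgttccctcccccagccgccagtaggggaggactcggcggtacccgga
TAP2 (chr6:32838740-32838889, minus strand): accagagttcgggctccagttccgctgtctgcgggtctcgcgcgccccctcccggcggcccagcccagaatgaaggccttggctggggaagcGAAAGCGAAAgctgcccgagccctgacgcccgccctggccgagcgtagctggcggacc
TAPBP (chr6:33314079-33314228, minus strand): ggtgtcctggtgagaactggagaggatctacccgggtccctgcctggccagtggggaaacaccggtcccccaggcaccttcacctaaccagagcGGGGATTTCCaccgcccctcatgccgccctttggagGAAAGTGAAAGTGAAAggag
PSMB8, upstream start (chr6:32844680-32844829, minus strand): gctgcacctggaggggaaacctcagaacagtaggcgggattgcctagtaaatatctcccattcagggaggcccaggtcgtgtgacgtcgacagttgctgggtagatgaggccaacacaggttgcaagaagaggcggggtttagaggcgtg
PSMB8, downstream start (chr6:32844042-32844167, minus strand): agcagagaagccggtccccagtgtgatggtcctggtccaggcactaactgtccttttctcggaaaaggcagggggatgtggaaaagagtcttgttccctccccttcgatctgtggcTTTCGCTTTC
PSMB9 (chr6:32854042-32854191, plus strand): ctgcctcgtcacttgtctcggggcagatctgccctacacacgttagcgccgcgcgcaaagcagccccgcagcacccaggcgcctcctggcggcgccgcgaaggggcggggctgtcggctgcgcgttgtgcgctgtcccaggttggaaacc

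Windows of 300 bases around RefSeq starts were held for 8 of the 9 members, HLA-E being the one without. An ISRE match was found in 3.57% of all 35116 windows, and in at least 1 window of B2M, TAP1, TAP2, TAPBP and PSMB8. B2M, TAP1 and TAPBP each carried 2 overlapping copies. In PSMB8 the match was confined to the downstream start, where its first base lay at -4 relative to the start, and the upstream start held no match to any of the searched motifs. NF-kB matches, present in 5.91% of windows, were found for HLA-B, HLA-C, B2M, TAP1 and TAPBP. The gamma-activated site (GAS, TTCNNNGAA, in 7.66% of windows) was found at the downstream starts of PSMB8 and TAP1. The CLEAR core TCACGTGA, the element read by TFEB and TFE3, was present in 0.98% of windows and in none of the members' windows. The window of PSMB9, which is transcribed away from TAP1 on the opposite strand, held only a CCAAT box in either orientation (ATTGG, in 34.6% of windows). This box (-243 from PSMB9) is the same one that was counted for TAP1 (-249). The TAP1 ISRE matches lie between the starts of TAP1 (32853704) and PSMB9 (32854192), but beyond the edge of the PSMB9 window (32853942). Such matches describe letters in these windows and do not show that a factor was bound. The plot of motif positions sets the members side by side.

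**Figure D1:**
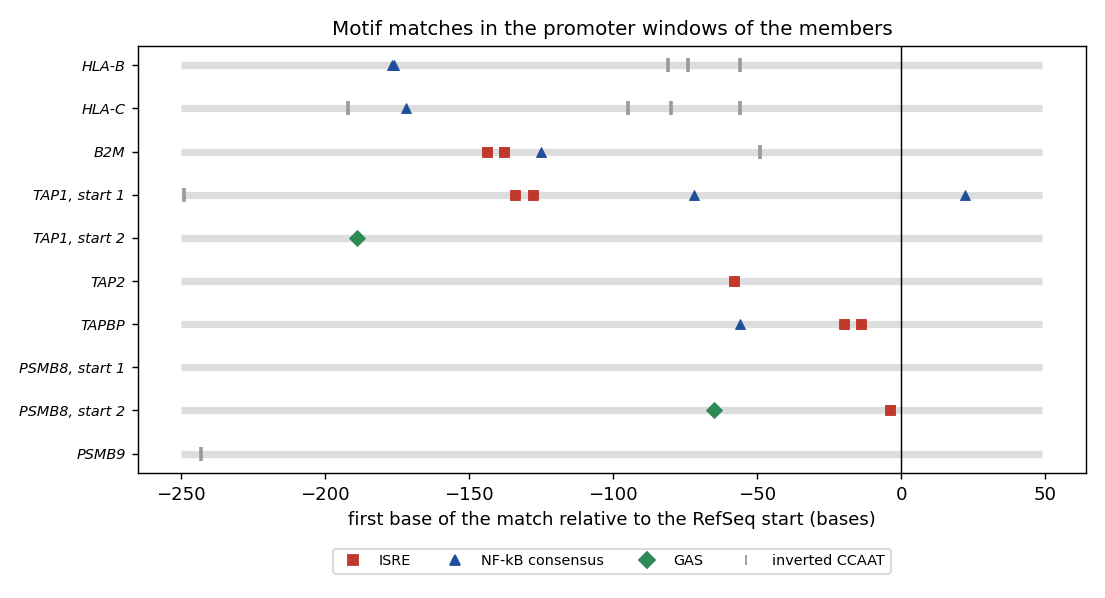
Matches to 4 motifs in the promoter windows of the members (grey bars, 250 bases before to 50 bases from the RefSeq start), with the horizontal axis giving the first base of each match relative to the start in bases. Red squares stand for ISRE, blue triangles for the NF-kB consensus, green diamonds for GAS and grey ticks for CCAAT boxes, and start 1 is the upstream start where a gene has more than 1. ISRE matches lie in B2M, TAP1, TAP2, TAPBP and at the downstream start of PSMB8.

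The libraries held from 2561790 to 7466916 counted reads each. TSG101 averaged 3.90 ± 0.764 and 3.41 ± 1.35 CPM (counts of a gene scaled to a common total for all libraries, with group values given as mean ± SD, n = 3) with siTsg101#1 and siTsg101#2 against 118 ± 40.1 with siCtrl#1, and VPS28 averaged 5.68 ± 2.19 and 6.11 ± 1.18 with the siVps28 siRNAs against 103 ± 13.4, so that each targeted transcript was low in all 6 of its libraries. The tissue label was checked against markers. Of 9 epithelial and colonic markers, 4 were measured (EPCAM, KRT8, KRT18 and CDX2), whereas CDH1, KRT19, KRT20, VIL1 and CDX1 had at most 3 counts in every library. Their summed level was 127 to 167 CPM in the nontargeting libraries and 93.9 to 145 CPM in the on-target libraries. Against siCtrl#1, EPCAM rose by 0.65 and KRT8 fell by 0.69 on the log2 scale (edgeR, adjusted p = 0.039 and 0.013), and against siCtrl#2 neither was called (-0.37 and -0.38), and the part of this in the results was not tested. The 7 blood and immune markers also had at most 3 counts in every library. Class II genes were near 0 as well, with at most 3 counts in every library for 7 of the 8 on the panel, and none could be tested.

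When the mean of the 4 on-target siRNAs was compared with siCtrl#1, PSMB8 rose and no member fell. A change was called at an adjusted p under 0.05 in edgeR's quasi-likelihood test, with Benjamini-Hochberg adjustment over all 10246 tested genes. Thus 1 of the 8 tested members was called, while 23.7% of all tested genes were called in the same comparison, 12% higher and 11.6% lower. The median log2 fold change of the 8 members was 0.18, beside -0.0079 over all tested genes. It includes TAPBP (0.68), which was tested only because it was high in the siTsg101 libraries, so the median is a description only. By single siRNA, PSMB8 was called with siTsg101#1 (26.1% of all genes called) and with siTsg101#2 (20.7%), and PSMB8 and TAP1 were called with siVps28#2 (14.9%). With siVps28#1 (9.45% of all genes) no member was called by edgeR or by DESeq2, and PSMB8 alone had an unadjusted p under 0.05 in either tool. Accordingly, 0 members were called with all 4 siRNAs, as against 4.78% of all tested genes. These comparisons share the siCtrl#1 libraries. In bulk RNA, fewer cells with a transcript and less of it per cell cannot be told apart. The plot of fold changes shows the tested members.

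**Figure D2:**
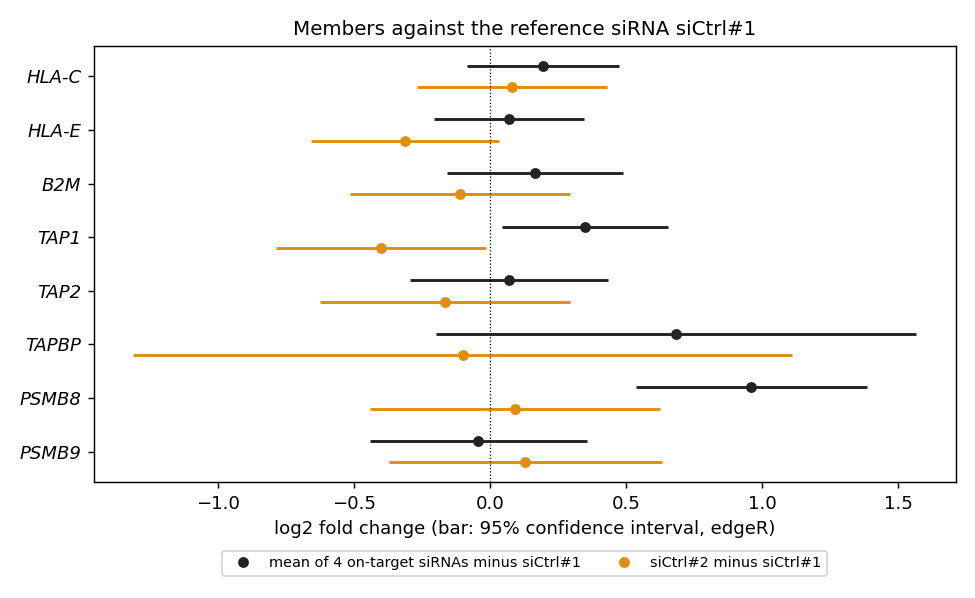
Log2 fold change (horizontal axis) of the 8 tested members for the mean of the 4 on-target siRNAs minus siCtrl#1 (black) and for siCtrl#2 minus siCtrl#1 (orange), with points for the estimates and bars for 95% confidence intervals from edgeR. The black interval of PSMB8 runs from 0.54 to 1.38, and those of HLA-C, HLA-E, B2M, TAP2, TAPBP and PSMB9 span 0.

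PSMB8 codes for the chymotrypsin-like subunit that replaces PSMB5 in the immunoproteasome. Its normalized CPM in replicates 1, 2 and 3 was 12.5, 11.1 and 9.42 with siCtrl#1. With siCtrl#2 the values were 9.40, 14.8 and 10.8. The nontargeting groups overlapped. With siTsg101#1 PSMB8 reached 24.5, 26.3 and 27.6 CPM. With siTsg101#2 it stood at 17.0, 31.6 and 23.7 CPM. All 6 TSG101-depleted libraries therefore lay above all 6 nontargeting libraries. How many of all tested genes did so was not counted. With siVps28#1 PSMB8 stood at 13.3, 19.6 and 14.5 CPM. With siVps28#2 it stood at 19.0, 25.5 and 17.0 CPM. All 12 on-target libraries were above the 3 siCtrl#1 libraries, as was the case for 5.87% of all tested genes, but 2 libraries of siVps28#1 lay below the highest siCtrl#2 library. PSMB8 rose 1.95-fold in the mean of the on-target siRNAs (log2 fold change 0.96, SE 0.205, 95% interval 1.45- to 2.61-fold, adjusted p = 0.0014). The log2 fold change was 1.26 with siTsg101#1 (adjusted p = 0.00056) and 1.14 with siTsg101#2 (adjusted p = 0.0017). It was 0.91 with siVps28#2 (adjusted p = 0.012) and 0.54 with siVps28#1 (95% interval 0.011 to 1.06, adjusted p = 0.21). The call with siVps28#2 was lost without replicate 2 of siVps28#2 (adjusted p = 0.072) and without replicate 3 of siCtrl#1 (adjusted p = 0.069).

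The level of PSMB8 was therefore highest with siTsg101#1 (26.1 ± 1.57 CPM), followed by siTsg101#2 (24.1 ± 7.30), siVps28#2 (20.5 ± 4.43), siVps28#1 (15.8 ± 3.34), siCtrl#2 (11.7 ± 2.82) and siCtrl#1 (11 ± 1.54). Neighbours in this order overlapped in their libraries. In each of the 3 batches all 4 on-target libraries were above both nontargeting libraries, with a mean difference from siCtrl#1 of 0.50, 1.13 and 1.02 on the log2(CPM + 1) scale. How many of all tested genes had this order within batches was not counted. PSMB8 rested on 36 to 203 counts per library. The gene lies on chromosome 6 (GRCh37 32808494 to 32812456, minus strand), and its exons share 602 bases with the antisense PSMB8-AS1 and 139 bases with PSMB9 on the other strand. The strand setting of the counting is not given in the sources used here, so reads of a gene and of its antisense partner cannot be told apart in shared bases. The panel's own target for PSMB8-AS1 had 0 to 3 counts per library.

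PSMB9 (chromosome 6, GRCh37 32811913 to 32827628, plus strand), the subunit that replaces PSMB6, was not called in any comparison. It averaged 17.5 ± 5.91 CPM with siCtrl#1 and 19.1 ± 1.33 with siCtrl#2. In the depleted cells it averaged 18.2 ± 2.48 and 17.6 ± 5.03 with the siTsg101 siRNAs and 15.9 ± 2.66 and 16.3 ± 2.70 with the siVps28 siRNAs. The 12 on-target libraries ran from 13.1 to 23.0 CPM, within the 12.7 to 24.1 CPM of the nontargeting libraries. The fold change in the mean of the on-target siRNAs was 0.97 (95% interval 0.736 to 1.28, adjusted p = 0.90), so that a rise as large as the estimate for PSMB8 lies outside its interval. PSMB10, the subunit that replaces PSMB7, differed with the nontargeting siRNA used as reference. Its log2 fold change was -0.54 against siCtrl#1 (adjusted p = 0.027) and 0.050 against siCtrl#2 (adjusted p = 0.90), and siCtrl#1 itself averaged 42.6 ± 12.3 CPM beside 28.0 ± 4.16 with siCtrl#2. Of the PSMB10 transcript, 48.6% is shared with an overlapping gene. The constitutive subunits PSMB5, PSMB6 and PSMB7 had log2 fold changes of -0.082, -0.075 and 0.082 against siCtrl#1, and 0 of 3 passed the test (edgeR, lowest adjusted p = 0.68). The plot of catalytic subunits shows all 6 genes.

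**Figure D3:**
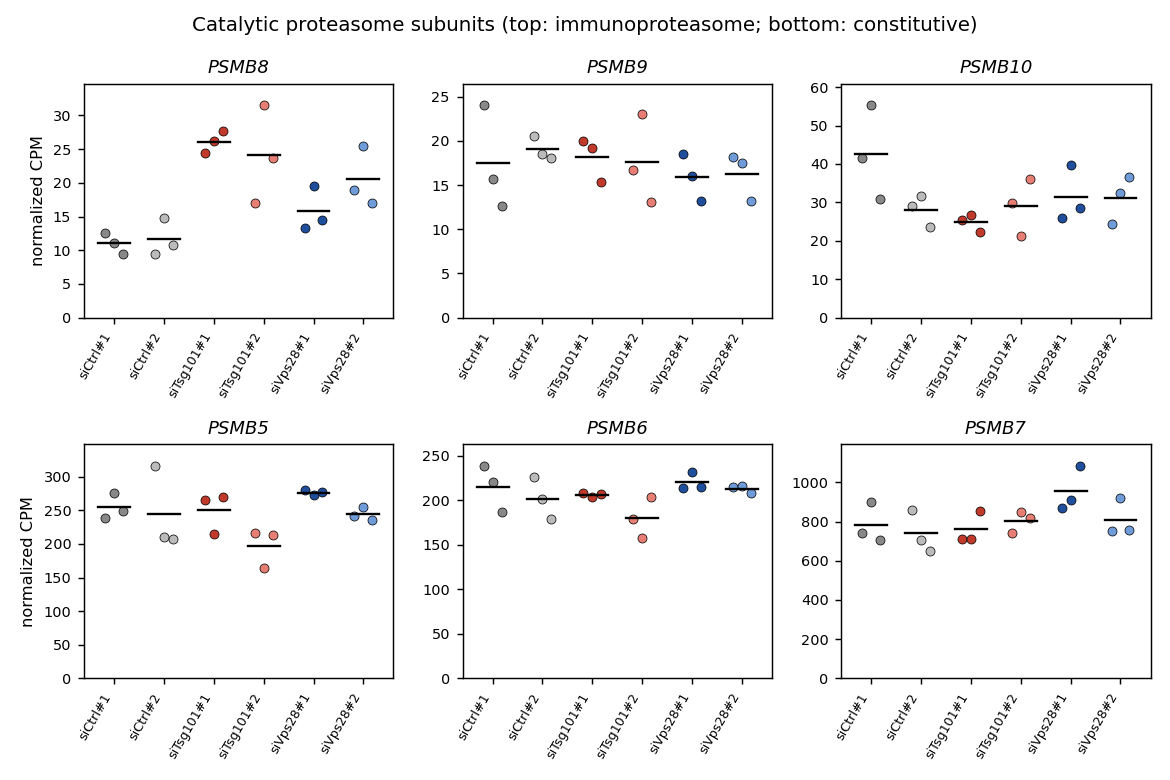
Normalized CPM (vertical axes, from 0) of the immunoproteasome subunits PSMB8, PSMB9 and PSMB10 and the constitutive subunits PSMB5, PSMB6 and PSMB7 in each of the 18 libraries, by siRNA group. Points are libraries in the order of replicates 1, 2 and 3, and lines are group means. PSMB8 is at 24.5 CPM or more in every siTsg101#1 library and at 12.5 CPM or less in every siCtrl#1 library, whereas the groups of PSMB9 overlap.

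TAP1 codes for a subunit of the peptide transporter. Its normalized CPM was 65.4, 52.6 and 52.7 with siCtrl#1. With siCtrl#2 it was lower, at 39.4, 48.7 and 41.2. The nontargeting groups thus did not overlap for TAP1, and the share of all tested genes with such a gap was not counted. With siTsg101#1 TAP1 stood at 84.5, 58.6 and 88.3 CPM. With siTsg101#2 it stood at 67.2, 61.9 and 66.1 CPM. These libraries were all above siCtrl#2 and overlapped with siCtrl#1. With siVps28#1 TAP1 stood at 80.0, 60.9 and 58.8 CPM. With siVps28#2 it stood at 67.9, 80.1 and 100.6 CPM, with all 3 libraries above siCtrl#1. TAP1 rose with siVps28#2 (log2 fold change 0.54, SE 0.182, adjusted p = 0.047), but the call was lost at a minimum of 1.5-fold (13.3% of all genes called) and in 9 of the 18 fits that left out 1 library. Without replicate 3 of siVps28#2 the log2 fold change was 0.38 (adjusted p = 0.22), and the adjusted p was 0.073 without its replicate 2 and 0.15 without replicate 2 or replicate 3 of siCtrl#1. It lay between 0.051 and 0.059 without replicate 1 of siTsg101#1, replicate 1 or 3 of siTsg101#2, replicate 2 of siVps28#1 or replicate 3 of siCtrl#2. In the mean of the on-target siRNAs TAP1 had a log2 fold change of 0.35 against siCtrl#1 (SE 0.148, 95% interval 0.042 to 0.66, adjusted p = 0.092). Against siCtrl#2 the same mean was 0.75 higher (adjusted p = 0.0014), where 16.2% of all genes were called, and against the mean of both nontargeting siRNAs it was 0.55 higher (adjusted p = 0.00088), where 28.8% were called. By single siRNA against that mean, TAP1 was called with siVps28#2 (0.74, adjusted p = 0.0016, 15.5%) and siTsg101#1 (0.64, adjusted p = 0.0037, 26.9%). It was not called with siTsg101#2 (0.39, adjusted p = 0.070, 23.7%) or siVps28#1 (0.42, adjusted p = 0.11, 8.46%). By single siRNA against siCtrl#2, TAP1 was called with siTsg101#1 (0.84, adjusted p = 0.0024, 18.3% of all genes called), siTsg101#2 (0.59, adjusted p = 0.029, 16.9%) and siVps28#2 (0.94, adjusted p = 0.0014, 10.4%), and siVps28#1 gave 0.63 (adjusted p = 0.056, 4.63%). Without replicate 2 of siTsg101#1 TAP1 was called against siCtrl#1 (log2 fold change 0.40, adjusted p = 0.045). In each batch all 4 on-target libraries were above both nontargeting libraries, with a mean difference from siCtrl#1 of 0.19, 0.30 and 0.53 on the log2(CPM + 1) scale. How many of all tested genes had this order within batches was not counted, so nothing is drawn from it for TAP1. siCtrl#2 minus siCtrl#1 was -0.40 (95% interval -0.79 to -0.017, adjusted p = 0.31). TAP1 (chromosome 6, GRCh37 32812986 to 32821593, minus strand) shares 672 exonic bases with PSMB8-AS1 on the other strand.

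TAP2, the partner of TAP1 in the transporter, averaged 92.3 ± 9.95 CPM with siCtrl#1 and 82.2 ± 11.3 with siCtrl#2. It averaged 108 ± 5.26 and 79.3 ± 22.6 with the siTsg101 siRNAs and 91.8 ± 3.27 and 112 ± 46.1 with the siVps28 siRNAs. Replicate 3 of siVps28#2, at 165 CPM, was the highest library, and the on-target libraries spanned the nontargeting ones. The fold change of TAP2 against siCtrl#1 was 1.05 (95% interval 0.816 to 1.35, adjusted p = 0.81). TAP2 lies on chromosome 6 (GRCh37 32789610 to 32806516, minus strand), and 35.3% of its transcript is shared, in stretches of 50 bases, with an overlapping protein-coding gene on the same strand.

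TAPBP was measured with very few reads, between 2 and 18 counts per library. The normalized CPM was 0.909, 1.23 and 0.685 with siCtrl#1. With siCtrl#2 it was 0.508, 1.24 and 0.770. With siTsg101#1 TAPBP stood at 2.45, 1.58 and 2.51 CPM. With siTsg101#2 it stood at 1.70, 1.40 and 2.65 CPM. All 6 of these libraries were above all 6 nontargeting libraries, and the share of all tested genes with such a gap was not counted. With siVps28#1 TAPBP stood at 0.577, 0.717 and 1.38 CPM. With siVps28#2 it stood at 1.62, 0.662 and 1.22 CPM, so that these groups overlapped with the nontargeting ones. The log2 fold change against siCtrl#1 was 1.27 with siTsg101#1 (95% interval 0.26 to 2.29, adjusted p = 0.059) and 1.06 with siTsg101#2 (adjusted p = 0.12). It was 0.025 with siVps28#1 and 0.37 with siVps28#2 (adjusted p = 0.99 and 0.70). Of its 121 counts, 30 and 36 came from the siTsg101#1 and siTsg101#2 libraries, so that TAPBP passed the minimum only through the groups in which it was high, and its values are given as a description. TAPBP (chromosome 6, GRCh37 33267471 to 33282061, minus strand) shares 1397 exonic bases with an antisense transcript.

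Of the class I chains among the members, only HLA-B had too few counts to test. It had 6 counts in 92502530 counted reads (exact Poisson 95% interval 2.2 to 13.06 counts, at most 0.141 CPM, counting error only), with 1 count in each of 6 libraries. These were all 3 libraries of siVps28#2, 2 of siTsg101#1 and 1 of siTsg101#2, and the libraries of siCtrl#1, siCtrl#2 and siVps28#1 held 0. All groups were at or under 3 counts, and no fold change was computed. Whether the amplicon matches the HLA-B alleles of RKO was not analysed here, so the count describes the panel's target and not the expression of the gene. The HLA-B exons (chromosome 6, GRCh37 31321649 to 31334844, minus strand) overlap 2 pseudogenes and share 20.6% of the transcript with other genes. The targets of HLA-G and HLA-H also had few counts, 7 and 4 in all, and their amplicons were not analysed here either.

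HLA-C, a classical heavy chain, was measured with 1446 to 4509 counts per library. It averaged 463 ± 48.1 CPM with siCtrl#1, 490 ± 91.1 with siCtrl#2, 600 ± 25.6 and 449 ± 27.5 with siTsg101#1 and #2, and 545 ± 63.7 and 535 ± 122 with siVps28#1 and #2. The on-target libraries (414 to 659 CPM) and the nontargeting libraries (408 to 595 CPM) overlapped over most of their range. Its fold change against siCtrl#1 was 1.14 (95% interval 0.941 to 1.39, adjusted p = 0.33). HLA-E, the nonclassical chain read by the NKG2 receptors of natural killer cells, averaged 378 ± 77.8 CPM with siCtrl#1, 304 ± 23.2 with siCtrl#2, 415 ± 47.3 and 343 ± 23.2 with siTsg101#1 and #2, and 425 ± 50.4 and 408 ± 67.3 with siVps28#1 and #2. Its fold change was 1.05 (95% interval 0.867 to 1.27, adjusted p = 0.75), while against siCtrl#2 its log2 fold change was 0.38 (adjusted p = 0.058). B2M, the light chain shared by all class I molecules, averaged 870 ± 116 CPM with siCtrl#1, 805 ± 48.2 with siCtrl#2, 941 ± 238 and 998 ± 270 with siTsg101#1 and #2, and 1035 ± 193 and 929 ± 118 with siVps28#1 and #2. Its fold change was 1.12 (95% interval 0.895 to 1.40, adjusted p = 0.49). For these 3 genes, a 2-fold rise over siCtrl#1 in the mean of the on-target siRNAs lies outside the interval. In GRCh37, HLA-C (31236526 to 31239907, minus strand) and HLA-E (30457286 to 30461971, plus strand) lie on chromosome 6 and B2M on chromosome 15 (45003556 to 45011049, plus strand). The heavy chains resemble each other in sequence, and 6.8% of the HLA-C transcript and 6.2% of the HLA-E transcript can be found in stretches of 50 bases in other genes. Levels were not compared between genes, because the position and length of each amplicon were not analysed here.

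**Figure D4:**
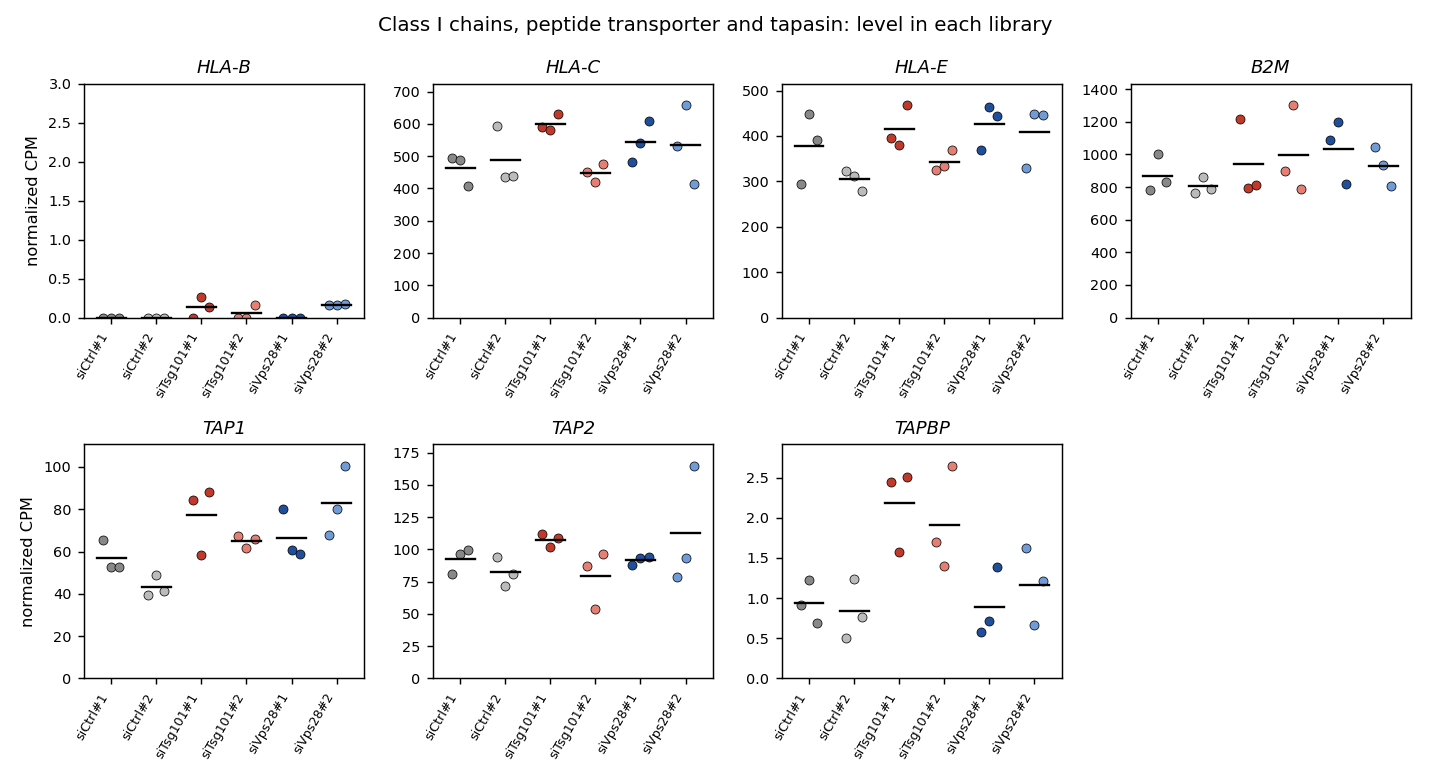
Normalized CPM (vertical axes, from 0, with a separate scale for each gene) of HLA-B, HLA-C, HLA-E, B2M, TAP1, TAP2 and TAPBP in each of the 18 libraries, by siRNA group. Points are libraries in the order of replicates 1, 2 and 3, and lines are group means. HLA-B does not exceed 0.263 CPM in any library, TAP1 is lowest with siCtrl#2, and TAPBP is highest in the siTsg101 groups.

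To ask whether loss of the 2 subunits differed, the mean of the siTsg101 siRNAs was compared with the mean of the siVps28 siRNAs. No member was called by edgeR, beside 11.8% of all tested genes, although PSMB8 and TAPBP had unadjusted p under 0.05 in edgeR and in DESeq2, and PSMB8 was called by DESeq2 (adjusted p = 0.048, 13.1% of all genes). PSMB8 was 1.39-fold higher after TSG101 than after VPS28 depletion (95% interval 1.103 to 1.76, adjusted p = 0.057) and TAPBP 1.96-fold higher (95% interval 1.22 to 3.14, adjusted p = 0.056). With the replicate number as a block, which the shared batches allow, PSMB8 was called (adjusted p = 0.017), beside 14.9% of all genes. Without the block, PSMB8 passed the threshold (adjusted p = 0.024 to 0.04988) when replicate 1 or 2 of siCtrl#2, replicate 1 of siTsg101#2, or replicate 2 of siVps28#1 or siVps28#2 was left out. TAPBP entered this comparison only through the siTsg101 libraries, and no call is drawn from it. TAP1 was 0.955-fold (95% interval 0.795 to 1.15, adjusted p = 0.80). The siRNAs against the same gene did not differ in any member called by either tool. Between siTsg101#1 and siTsg101#2 (7.89% of all genes called), HLA-C alone had an unadjusted p under 0.05 in both tools, and between the siVps28 siRNAs (0.488%) no member had. The nontargeting siRNAs differed in 0 members called by edgeR or DESeq2 (2.13% of all genes in edgeR), with TAP1 alone at an unadjusted p under 0.05 in both.

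Other genes of the pathway were taken from lists of its known components. Among 8 tested chains of the class I fold outside the members, 3 rose and 1 fell against siCtrl#1. MR1, which presents vitamin metabolites, rose by 0.88 (adjusted p = 0.0026), but by 0.38 against siCtrl#2 (adjusted p = 0.18). MICA, a stress ligand of the NKG2D receptor, rose by 0.53 (adjusted p = 0.0010) and by 0.70 against siCtrl#2 (adjusted p = 0.00011). The NKG2D ligand ULBP2 rose by 0.42 and ULBP3 fell by 0.64 (adjusted p = 0.038 and 0.0015), and neither was called against siCtrl#2 (0.13 and -0.071). Against siCtrl#2, 2 of the 8 rose and 0 fell, and against the mean of both nontargeting siRNAs 4 rose and 1 fell. MICB, another NKG2D ligand, depended on the reference, at -0.022 against siCtrl#1 (adjusted p = 0.94), 1.42 against siCtrl#2 (adjusted p = 5.7e-06) and 0.70 against both (adjusted p = 0.00018). HLA-F was called with both siTsg101 siRNAs (log2 fold change 1.52 and 1.38, adjusted p = 0.015 and 0.026), with 2 to 33 counts per library. For the mean of the on-target siRNAs it was not called against siCtrl#1 (0.98, adjusted p = 0.068) or siCtrl#2 (1.08, adjusted p = 0.062). It was called against both (1.03, adjusted p = 0.011).

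Of 12 tested genes of peptide loading and trimming, 2 rose and 2 fell. CANX (calnexin), which folds new heavy chains, rose by 0.66 against siCtrl#1 and by 0.46 against siCtrl#2 (adjusted p = 0.00093 and 0.019). Most of this came from siTsg101#2, with 983 ± 135 CPM, whereas siTsg101#1 gave 475 ± 75.6, siVps28#1 433 ± 49.5 and siVps28#2 440 ± 68.9 CPM, beside 345 ± 29.5 with siCtrl#1 and 397 ± 39.8 with siCtrl#2. By single siRNA, CANX was called with siTsg101#2 (1.51, adjusted p = 8.6e-07) and siTsg101#1 (0.46, adjusted p = 0.040) but not with siVps28#1 or siVps28#2 (adjusted p = 0.24 and 0.16). NPEPPS, a cytosolic aminopeptidase, rose by 0.67 (adjusted p = 0.028), and its value against siCtrl#2 was -0.045 (adjusted p = 0.92). The peptidases LAP3 and THOP1 fell by 0.47 and 0.43 (adjusted p = 0.0063 and 0.040), and were not called against siCtrl#2 (-0.27 and -0.087). HSPA5, of the same list, fell against siCtrl#2 (-0.41, adjusted p = 0.029) but not against siCtrl#1 (0.071, adjusted p = 0.74). Of 6 immunoproteasome genes and activators, 2 rose and PSMB10 fell as given. POMP, the maturation factor that brings PSMB8 into new proteasomes, rose by 1.05 (SE 0.247, adjusted p = 0.0031) and by 1.0985 against siCtrl#2 (adjusted p = 0.0033). PSME4, a proteasome activator, rose by 0.42 (adjusted p = 0.021), but by 0.16 against siCtrl#2 (adjusted p = 0.43). PSME1 and PSME2, which form the interferon-inducible activator, had log2 fold changes of -0.063 and -0.038 (adjusted p = 0.80 and 0.90).

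Of 14 tested regulators of class I genes, 1 rose and 1 fell. NFKB1, the p50 subunit of NF-kB, rose by 0.98 (adjusted p = 2.3e-05) and by 1.06 against siCtrl#2 (adjusted p = 1.5e-05). NLRC5, the class I transactivator, fell by 0.53 (adjusted p = 0.012), and its value against siCtrl#2 was -0.28 (adjusted p = 0.23). Against siCtrl#2, 2 of the 14 rose and 1 fell. Besides NFKB1 these were RELA, the p65 subunit of NF-kB, which rose by 0.60 (adjusted p = 0.018, with 0.27 and adjusted p = 0.25 against siCtrl#1), and RFXAP, a subunit of the RFX complex, which fell by 0.93 (adjusted p = 0.0064, with -0.0092 and adjusted p = 0.98 against siCtrl#1). IRF1 was not called in the mean (log2 fold change 0.24, adjusted p = 0.44). Of 9 tested interferon receptors and kinases, 2 rose, namely IFNGR2 by 0.84 (adjusted p = 0.00014) and the kinase JAK1 by 0.53 (adjusted p = 0.010). Against siCtrl#2 IFNGR2 was 0.73 higher (adjusted p = 0.00079) and JAK1 0.27 (adjusted p = 0.22). Of 9 tested genes for the turnover of class I proteins, DERL1 rose by 0.72 and UBE2J1, an endoplasmic reticulum ubiquitin-conjugating enzyme, fell by 0.41 (adjusted p = 0.00030 and 0.017). Against siCtrl#2 the value of DERL1 was -0.096 (adjusted p = 0.65) and that of UBE2J1 was -0.33 (adjusted p = 0.066). MARCHF9, of the same list, fell against siCtrl#2 (-0.44, adjusted p = 0.044) but not against siCtrl#1 (0.026, adjusted p = 0.92). MR1, MICA, ULBP3, CANX, POMP, NFKB1, IFNGR2 and DERL1 were called in each of the 18 fits that left out 1 library. Calls were lost (adjusted p = 0.066 to 0.31) without replicate 1 of siCtrl#1 for LAP3, PSMB10, PSME4 and JAK1, without its replicate 2 for PSMB10, NLRC5 and UBE2J1, and without its replicate 3 for NPEPPS and UBE2J1. THOP1 and ULBP2 lost theirs without any single siCtrl#1 library and without some libraries of other groups (adjusted p = 0.05003 to 0.20). A minimum of 1.5-fold would end the calls of MICA, ULBP2, LAP3, THOP1, PSMB10, PSME4, NLRC5, JAK1 and UBE2J1, whose fold changes were smaller, beside 15% of all genes called. All of these counts stand beside 23.7% of all genes called against siCtrl#1 and 16.2% against siCtrl#2.

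Across the 18 libraries the members did not move as a unit. The Pearson correlations of log2 CPM among the 28 pairs of tested members ran from -0.587 for HLA-E and PSMB9 to 0.621 for TAPBP and PSMB8. TAPBP, with 2 to 18 counts per library, and PSMB8 had r = -0.001 once group means were removed. PSMB8 and TAP1 had r = 0.585 over all libraries and -0.037 once group means were removed. PSMB8 and PSMB9 had r = 0.113 over all libraries and 0.349 once group means were removed, and TAP1 and TAP2 had r = 0.469 and 0.31. Other pairs stayed or became strongly negative once group means were removed. HLA-E and PSMB9 then had r = -0.631, and TAP2 and PSMB8 had -0.582 (-0.046 over all libraries). The genes with the pattern most like PSMB8 were CBR1, UCHL3 and PLPP6 (r = 0.911, 0.894 and 0.89). Those most like TAP1 were KCNK1, MREG and DPP3 (r = 0.877, 0.866 and 0.863). For HLA-C they were TRUB1, TRAF3 and TECPR1 (r = 0.865, 0.842 and 0.82), and for TAP2 APRT, SEC23IP and SPRYD3 (r = 0.918, 0.901 and 0.874). HLA-E came closest to ABCF1 (r = 0.883), B2M to CCNG1 (r = 0.792), PSMB9 to ZNF563 (r = 0.827) and TAPBP to PIK3C2A (r = 0.882). No member was among the 3 nearest genes of another. The libraries share siRNA groups, batches and depth, and these values describe likeness among 10246 genes only.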

How the data were processed

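RNA of 18 RKO libraries was measured by amplicon sequencing (Ion AmpliSeq Transcriptome panel, Ion Proton). The deposited values are raw counts per transcript target, made by the authors with HTSeq 0.6.0 after alignment to an hg19 reference of the panel. Reads without a gene made up 53.32 to 54.6% of all reads and were left out, as were 10 spike-in targets. Of 20802 targets, 20228 had a RefSeq gene name. Targets with more than 100 counts over all libraries were kept (10632), and 386 noncoding targets were left out. Counts were fitted with edgeR 4.0.16 (R 4.3.3), with TMM factors and the 6 siRNA groups in 1 model. The minimum, the noncoding filter, the reference siCtrl#1 and the threshold of 0.05 follow the study's methods, which used DESeq2 1.18.1. CPM are TMM-normalized. The members and lists were chosen with earlier results of these data known. Named genes are the members, TSG101, VPS28, the marker lists, up to 4 genes a list past the threshold against siCtrl#1 or needed to follow the pathway, and the 3 genes most like each member. ULBP2, HLA-F, MICB, RELA, RFXAP, HSPA5 and MARCHF9 were named outside this rule, after their values were seen. Some genes of the lists are not reported here and were left out of the lists' counts.

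Groups and pairing come from the labels, which give the replicate number as batch. Deviations from group means correlated at 0.145 on average among 45 pairs of libraries with the same number in different groups (-0.147 to 0.389) and at -0.073 among 90 other pairs. On simulated counts for the mean of the on-target siRNAs over 10246 genes, 36 of 100 genes changed 1.5-fold and 84 of 100 changed 2-fold were called, and 0 unchanged genes. No other genes were changed in the simulation and batches had no effect in it, whereas 23.7% of all genes were called in the data. The recovery in the data may therefore differ. The reads carry no molecular identifiers. The alternatives were DESeq2 1.42.0, RLE factors, other filters on low counts, noncoding genes kept, a 1.5-fold minimum, the replicate block, other reference groups and leaving out each library. Promoter windows and names are from RefSeq (GRCh38.p14), and gene positions and overlaps from the GRCh37 annotation.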

Additional observations from a re-analysis of the deposited data

Results flagged for a closer look

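No member was past the threshold between depletion of TSG101 and of VPS28 (mean of the siTsg101 siRNAs minus mean of the siVps28 siRNAs, edgeR). By the same test some other genes of the pathway lists were called. After TSG101 depletion, 1 of 8 other class I chains was higher and 1 lower, and of 14 regulators 2 were higher and 1 lower. Of 9 interferon receptors and kinases 2 were higher. Peptide loading and trimming (12 genes) and the immunoproteasome list (6 genes) each had 1 higher, and class I protein turnover (9 genes) had 1 lower. Values are given for 5 of the genes called, none of them a regulator. The difference was 0.94 for HLA-F (SE 0.289, adjusted p = 0.035), 0.65 for CANX (SE 0.115, adjusted p = 0.00042), 0.86 for POMP (SE 0.192, adjusted p = 0.0040) and 0.39 for IFNGR2 (SE 0.118, adjusted p = 0.030) on the log2 scale, all higher after TSG101 depletion. HLA-F was named after its values were seen, among them its rise with both siTsg101 siRNAs. It had 2 to 33 counts per library, and no call is drawn from its difference. For CANX the difference came mostly from siTsg101#2 (983 ± 135 CPM, n = 3), since siTsg101#1 (475 ± 75.6 CPM) overlapped with the siVps28 groups (433 ± 49.5 and 440 ± 68.9 CPM), and siTsg101#1 was 1.05 lower than siTsg101#2 on the log2 scale (adjusted p = 0.00025). DERL1 was lower after TSG101 depletion (-0.38, SE 0.110, adjusted p = 0.025). Of all tested genes, 11.8% were called in this comparison.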

How the results depend on the processing

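PSMB8 kept its call against siCtrl#1 for the mean of the on-target siRNAs in 27 of 27 alternatives (log2 fold change 0.85 to 1.07), and with siTsg101#1 and siTsg101#2 in 27 of 27 each. HLA-C, HLA-E, B2M, TAP2 and PSMB9 were called in 0 of 27 for the mean of the on-target siRNAs. With siCtrl#2 as the reference, 2 members were called for the mean of the on-target siRNAs (16.2% of all genes called), 2 with siTsg101#1 (18.3%) and 2 with siTsg101#2 (16.9%). With the mean of both nontargeting siRNAs the counts were 2 (28.8%), 3 (26.9%) and 2 (23.7%). The added members were TAP1 and TAPBP, the latter tested only because it was high in the siTsg101 libraries. The minimum of 1.5-fold left 1 member called with siVps28#2 (13.3% of all genes called) and ended the calls of 9 listed genes. Between TSG101 and VPS28 depletion, PSMB8 was called with DESeq2 (13.1% of all genes called) and without a filter on low counts (9.32%). In the fit with the replicate block (14.9%) PSMB8 was called as well. TAPBP also passed the threshold in that fit, but no call is drawn from it, since it was tested only through the siTsg101 libraries. Blocking by the number changed no other call of a member, and raised the count over all genes from 218 to 359 between the nontargeting siRNAs and from 50 to 76 between the siVps28 siRNAs. Leaving out 1 library at a time gave 0 to 2 members called between TSG101 and VPS28 depletion (9.2 to 13.8% of all genes called). TAPBP was among them in some of these fits, and no call is drawn from it. With siVps28#2, 0 to 2 members were called (10.4 to 17.2% of all genes), and 0 without its replicate 2 or replicate 3 of siCtrl#1. The count was 1 to 2 for the mean of the on-target siRNAs (15.3 to 26.3%) and 1 to 2 with siTsg101#1 (18 to 28.5%). These last 2 counts rose to 2 only without replicate 2 of siTsg101#1.

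Uncalled values that changed sign when 1 library was left out were HLA-E (-0.082 to 0.21), TAP2 (-0.026 to 0.13) and PSMB9 (-0.25 to 0.27) for the mean of the on-target siRNAs. The same held for TAPBP with siVps28#1 (-0.45 to 0.23), TAPBP and PSMB8 between the nontargeting siRNAs (-0.44 to 0.13 and -0.11 to 0.23) and TAP1 between TSG101 and VPS28 depletion (-0.12 to 0.020). Against siCtrl#2, NPEPPS (-0.045), PSMB10 (0.050) and DERL1 (-0.096) changed sign. The causes were not tested. At least 10 counts in every library left out TAPBP and HLA-F. HLA-B had too few counts to test, and the match of its amplicon to the alleles of RKO was not analysed here.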
